A study of Mus musculus with 4 samples.

Results

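Krt6a, Krt6b, Krt16 and Krt17, the stress keratins of mouse epidermis, were followed through the open chromatin of inflamed keratinocytes with and without the kinase JNK1. These 4 of 21924 protein-coding genes were chosen by name, and every ATAC-seq region overlapping a gene body or the 5 kb on either side of it was kept. This gave 7 of 82641 regions: 3 at Krt6a, 1 at Krt16, 3 at Krt17 and 0 at Krt6b. ATAC-seq marks open chromatin by the places where the transposase Tn5 can insert sequencing adapters. A region is an interval in which the peaks of any of the 4 libraries overlapped by at least 1 bp.

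Keratins assemble into the intermediate filaments of epithelial cells, always as pairs of a type II chain, such as those of Krt6a and Krt6b, with a type I chain, such as those of Krt16 and Krt17. In resting skin the stress keratins are largely restricted to hair follicles, nails and palmoplantar skin. After wounding or inflammation they are switched on in the epidermis between follicles, and psoriatic plaques express them strongly. AP-1, the family of Fos and Jun transcription factors, is a known regulator of keratin genes, and Jun is a substrate of JNK1, the product of Mapk8.

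All libraries came from epidermal keratinocytes, sorted as EpCam+ CD49f-high cells from female mice aged 8 to 12 weeks whose skin had received Aldara, a cream with 5% imiquimod that causes psoriasis-like inflammation, daily for 8 days. The 2 WT libraries came from mice labelled Wild Type, and the 2 Mapk8-KO libraries from mice whose floxed Mapk8 alleles were deleted by a KRT14-cre transgene, active where the keratin 14 promoter is. Per the study's methods controls were littermates, but whether these WT mice carried floxed alleles was not given in the sources used here. No untreated library was analysed here, so the levels below are those of inflamed skin alone. The study describes the ATAC-seq samples of each group as 2 independent ones. Nothing in the labels says how many mice stood behind a library, and p values therefore measure only the spread between libraries.

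Depth, relative to WT 1 and estimated from the fragments piled up at peak summits, was 0.694 for WT 2, 1.10 for Mapk8-KO 1 and 0.612 for Mapk8-KO 2. The lists held between 49856 and 69927 peaks. Replicate 2 was thus the shallower library of each genotype. Regions at the start sites of the keratinocyte markers Krt5, Krt14, Trp63, Itga6, Epcam and Dsg3 were called in at least 2 libraries, and those of Trp63, Itga6, Epcam and Dsg3 in all 4. None of the 4 leukocyte markers Ptprc, Cd3e, Lyz2 and Cd79a had a region at its start site. The windows of these 4 genes held 9 regions, of which 8 and 6 were called in the WT libraries and 7 and 2 in the Mapk8-KO libraries. Those of the keratinocyte markers held 45, of which 38 and 27 were called in WT and 39 and 19 in Mapk8-KO. Of 5 regions in the window of Ptprc and 9 in that of Pecam1, 2 each were called in both WT libraries and no Mapk8-KO library. At the keratinocyte gene Trp63, 1 of 18 regions showed this pattern, beside 2.17% of all regions. None of the marker windows held a region with the reverse pattern, which 1.65% of all regions showed. A start site region was called in all 4 libraries for Pecam1 of endothelium, Pdgfra and Col1a1 of fibroblasts, and Mlana and Dct of melanocytes. For Cdh5 of endothelium it was called in none. The part of other cell types in the values below was not tested.

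All 4 genes are read from the minus strand, and coordinates are on mm10. Krt16 (ENSMUSG00000053797.10, chr11:100246091-100248902) and Krt17 (ENSMUSG00000035557.9, chr11:100256217-100261029) are neighbours with 7314 bp between them. Krt6b (ENSMUSG00000023041.7, chr15:101676023-101680287) and Krt6a (ENSMUSG00000058354.7, chr15:101689910-101694307) are a second pair of neighbours, 9622 bp apart. None of the 7 summits lay inside a gene body: 5 were upstream of a start site, and 2 lay past the 3′ end of Krt17, in the stretch between Krt17 and Krt16.

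The sequence around 4 of these summits is shown because each holds the AP-1 site TGACTCA or its reverse complement TGAGTCA, the recognition letters of the factors JNK1 acts on. Capitals mark these sites. Each stretch is read 5′ to 3′ on the minus strand, the strand of the genes, from the RefSeq copy of the mm10 assembly. They come from the region upstream of the Krt16 start site (chr11:100249153-100249311), the regions farther from and nearer to the 3′ end of Krt17 (chr11:100254429-100254669 and chr11:100255751-100255991), and the region farthest upstream of Krt6a (chr15:101697491-101697731).
Krt16, upstream of the start site: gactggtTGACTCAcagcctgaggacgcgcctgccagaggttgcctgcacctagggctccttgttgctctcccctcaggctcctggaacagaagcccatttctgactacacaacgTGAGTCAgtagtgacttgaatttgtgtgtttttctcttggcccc
Krt17, farther past the 3′ end: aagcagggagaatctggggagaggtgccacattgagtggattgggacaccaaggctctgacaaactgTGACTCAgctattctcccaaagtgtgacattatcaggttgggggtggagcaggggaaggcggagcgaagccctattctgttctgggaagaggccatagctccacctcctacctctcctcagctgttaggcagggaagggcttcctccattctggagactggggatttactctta
Krt17, nearer the 3′ end: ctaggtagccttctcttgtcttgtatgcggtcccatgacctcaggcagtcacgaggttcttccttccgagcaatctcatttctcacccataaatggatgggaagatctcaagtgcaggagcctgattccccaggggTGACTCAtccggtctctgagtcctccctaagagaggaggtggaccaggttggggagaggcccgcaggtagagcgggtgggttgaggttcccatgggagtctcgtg
Krt6a, farthest upstream: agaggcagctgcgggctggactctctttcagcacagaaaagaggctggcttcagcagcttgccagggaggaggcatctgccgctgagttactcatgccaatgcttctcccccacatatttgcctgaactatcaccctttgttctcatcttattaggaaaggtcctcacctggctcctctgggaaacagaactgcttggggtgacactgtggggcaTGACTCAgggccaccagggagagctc

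The Krt16 region held 2 such sites. The one printed as TGAGTCA was centred 2 bp from the strongest summit and began 294 bp upstream of the start site, and the one printed as TGACTCA was centred 110 bp from that summit. The sites of the Krt17 regions lay 50 and 19 bp from the strongest summit, and that of Krt6a 98 bp from it. Over their whole length 4 of the 7 regions held the site, against 29.7% of all 82641 regions. Within 100 bp of the strongest summit 3 of 7 held it complete, against 23.7% of all regions. The Krt17 region farther past the 3′ end also matched TTCNNNGAA, the letters read by STAT factors (5.73% of all regions), and TGACNNNGC, the core of the antioxidant response element (11.9%), the latter overlapping its AP-1 site. The region 1406 bp upstream of Krt6a matched TTCNNNGAA and TTGCNNAA, the letters read by C/EBP factors (11.4%). All searches covered both strands, and a match describes the letters and not binding. The regions at the start sites of Krt6a and Krt17 held no AP-1 site of these letters.

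**Figure D1:**
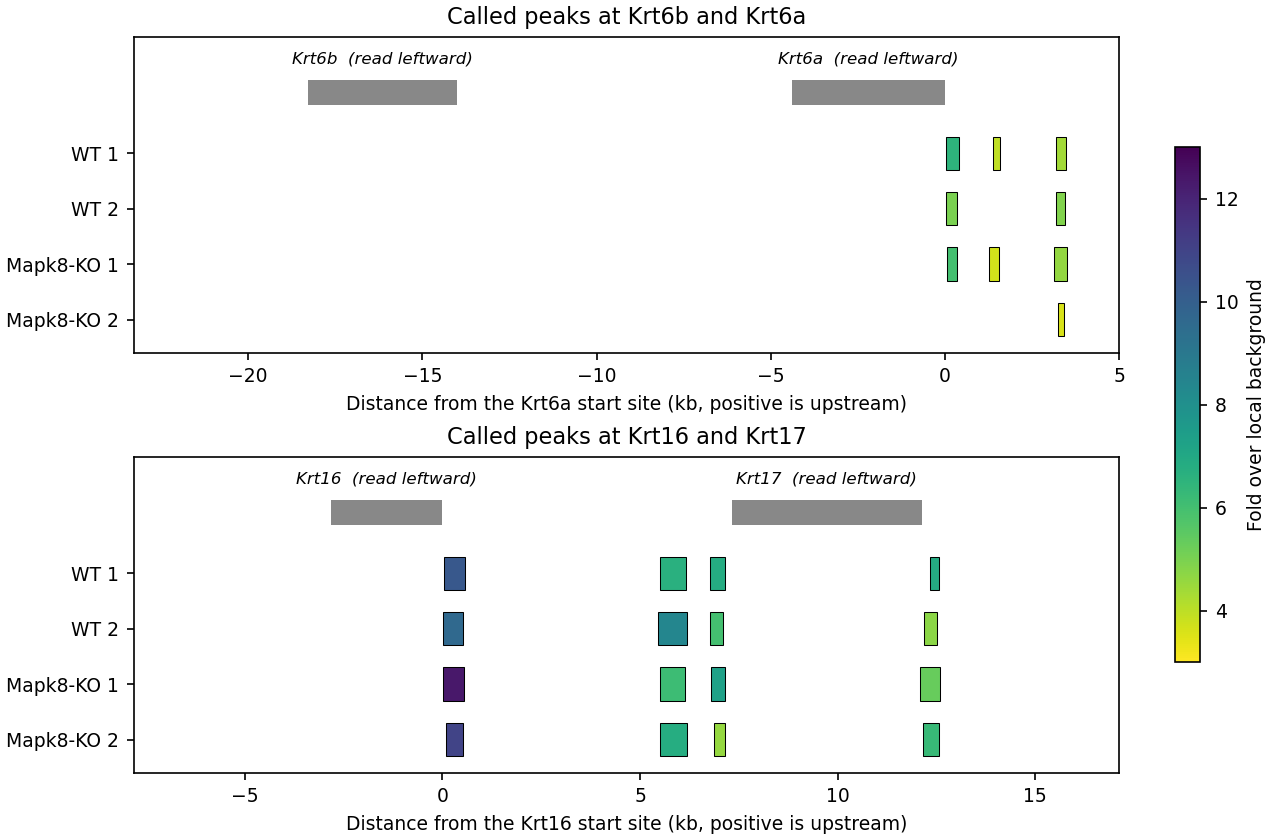
Called peaks at the 2 keratin loci, 1 row per library, against the distance in kb from the start site of Krt6a (top) or Krt16 (bottom). Boxes are peaks coloured by fold over local background and grey bars are genes. All 4 libraries have peaks at Krt16 and at the 3 Krt17 regions, Krt6b has none, and Mapk8-KO 2 keeps only the farthest of the 3 Krt6a regions.

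Calls were compared first, to ask whether any stretch of these loci was open in one genotype alone. Of the 7 regions, 5 were called in all 4 libraries, namely the Krt16 region, the 3 Krt17 regions and the farthest Krt6a region. Over the whole genome 48.6% of regions were called in all 4. WT 1 and Mapk8-KO 1 each had 7 of the regions, WT 2 had 6 and Mapk8-KO 2 had 5. None was called in both WT libraries and no Mapk8-KO library, a pattern shown by 2.17% of all regions. None showed the reverse either, which 1.65% of all regions did. The regions that were not called everywhere were missing from the shallower libraries.

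Krt16, which encodes the type I partner of the Krt6 chains, had the strongest of the 7 regions by summit pileup and by fold. It spanned chr11:100248907-100249476, with its strongest summit 289 bp upstream of the start site. The summit pileup, the number of fragments covering the summit, was 91 and 55 in the WT libraries and 94 and 44 in the Mapk8-KO libraries, replicate 1 first here and below. Within every library this was the highest of the 7 regions. Scaled to the depth of WT 1, the pileups were 91.0 and 79.3 in WT and 85.3 and 71.9 in Mapk8-KO, so that the groups overlapped. The group values were 85.1 ± 8.30 in WT and 78.6 ± 9.50 in Mapk8-KO (SD, n = 2 each). In limma, fitted over the 40159 regions called in all 4 libraries, the log2 difference, WT minus Mapk8-KO, was 0.12 (SE 0.20, adjusted p = 0.873), and the median over all these regions was -0.05. With each library left out in turn the difference at Krt16 ranged from -0.039, without Mapk8-KO 2, to 0.24, without Mapk8-KO 1.

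The deposited fold of the Krt16 region, its summit pileup over the local background of the same library, gave another picture. Fold was 10.3 and 9.61 in WT and 12.3 and 11.0 in Mapk8-KO. Ranked among the 40159 regions of each library, this put Krt16 at the 61.8 and 60.3 percentiles in WT and at the 77.8 and 77.3 percentiles in Mapk8-KO. The lower Mapk8-KO value exceeded the higher WT value by 15.5 points, past the gap of 10 points used to call a rank difference. Krt16 was thus the 1 region of the 5 ranked higher in Mapk8-KO, as were 4.07% of all regions, and 0 of the 5 were ranked higher in WT, as were 4.65%.

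The 2 measures differed in their background term. The local background at Krt16, scaled to the depth of WT 1, was 7.94 and 6.95 fragments in WT and 6.08 and 5.07 in Mapk8-KO, lower in both Mapk8-KO libraries. Ranked by summit pileup instead of fold, a comparison added after the data had been seen, Krt16 stood at 85.0 and 78.7 in WT and 81.3 and 72.5 in Mapk8-KO, and by -log10 p at 82.2 and 75.1 against 83.3 and 76.0. The groups overlapped on both of these scales. The higher rank in Mapk8-KO therefore held for fold and not for the number of fragments at the summit.

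**Figure D2:**
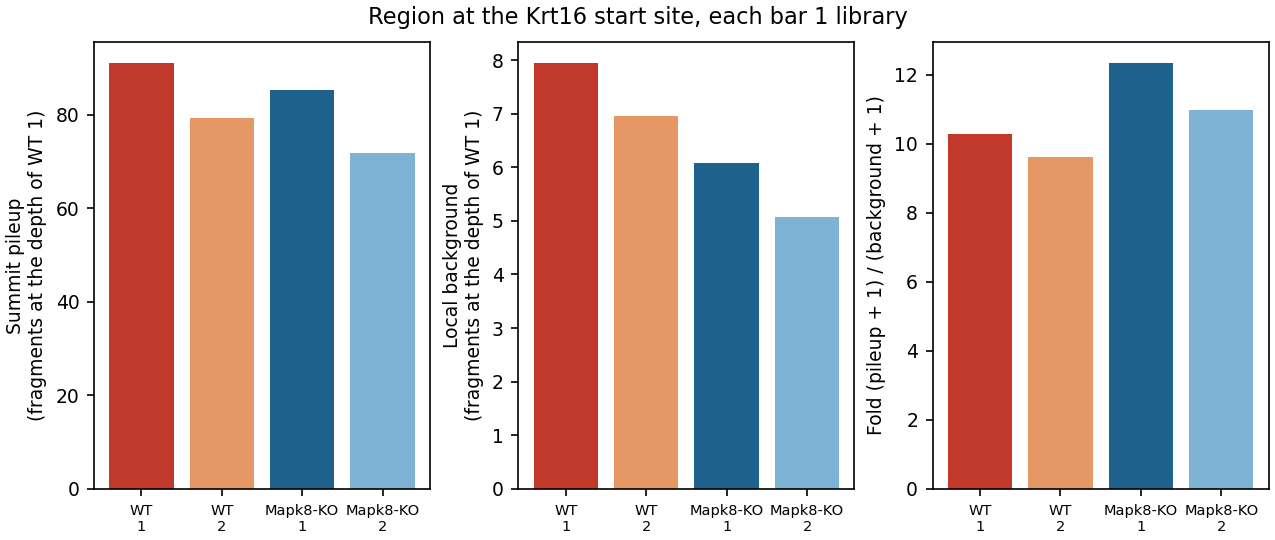
Summit pileup, local background and fold of the region upstream of the Krt16 start site, each bar 1 library and each axis from 0. Pileup and background are in fragments at the depth of WT 1. The pileups of the genotypes overlap (71.9 to 91.0), the background is lower in both Mapk8-KO libraries, and fold is higher there (11.0 and 12.3 against 9.61 and 10.3).

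Krt17 encodes a type I keratin of hair follicles and activated epidermis. All 3 of its regions were called in all 4 libraries. The region at the start site (chr11:100260989-100261497, strongest summit 278 bp upstream) had the lowest summit pileups of them in every library, 25 and 11 in WT and 20 and 21 in Mapk8-KO. Its fold percentiles, 24.6 and 6.22 in WT and 9.05 and 25.8 in Mapk8-KO, overlapped fully between genotypes. The spread within each genotype was wide, since the scaled pileup was 20.4 ± 6.47 in WT and 26.2 ± 11.4 in Mapk8-KO (SD, n = 2 each). The log2 pileup difference, WT minus Mapk8-KO, was -0.33 (SE 0.32, adjusted p = 0.751 in limma). With each library left out in turn this difference ranged from -0.78, without Mapk8-KO 1, to 0.10, without Mapk8-KO 2.

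The 2 regions past the 3′ end of Krt17 had higher summit pileups than the one at its start site in every library. By fold this order did not hold, since the start site region had 6.87 in WT 1, against 6.65 and 6.83 for the others, and 6.28 in Mapk8-KO 2, against 4.59 for the nearer one. The farther of them (chr11:100254344-100255085) was the widest of the 7 regions at 742 bp, with its strongest summit 1668 bp past the 3′ end and 5647 bp upstream of the Krt16 start site. It missed the window of Krt16 by 442 bp, and peak lists do not tell which gene, if any, it acts on. Its pileups were 58 and 48 in WT and 48 and 34 in Mapk8-KO. Scaled to depth they were 58.0 and 69.2 in WT and 43.6 and 55.5 in Mapk8-KO, the only scaled pileups of the 5 regions that did not overlap between genotypes. Such a separation with WT higher was found in 16.9% of all regions. The log2 difference, WT minus Mapk8-KO, was 0.37 (SE 0.23, adjusted p = 0.561 in limma), and the exact permutation test gave p = 0.33, the smallest p this design of 2 against 2 allows. With each library left out in turn the difference ranged from 0.19, without Mapk8-KO 1, to 0.52, without WT 1. In fold percentiles the same region overlapped, at 22.2 and 47.4 in WT and 16.1 and 32.3 in Mapk8-KO.

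The nearer region (chr11:100255663-100256054) had its strongest summit 346 bp past the 3′ end of Krt17. Its pileups were 58 and 34 in WT and 60 and 24 in Mapk8-KO, and the scaled values of the groups overlapped. Fold percentiles were 24.3 and 18.1 in WT and 28.7 and 6.04 in Mapk8-KO. The log2 pileup difference, WT minus Mapk8-KO, was 0.21 (SE 0.24, adjusted p = 0.795 in limma). With each library left out in turn it ranged from -0.063, without Mapk8-KO 2, to 0.44, without Mapk8-KO 1.

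**Figure D3:**
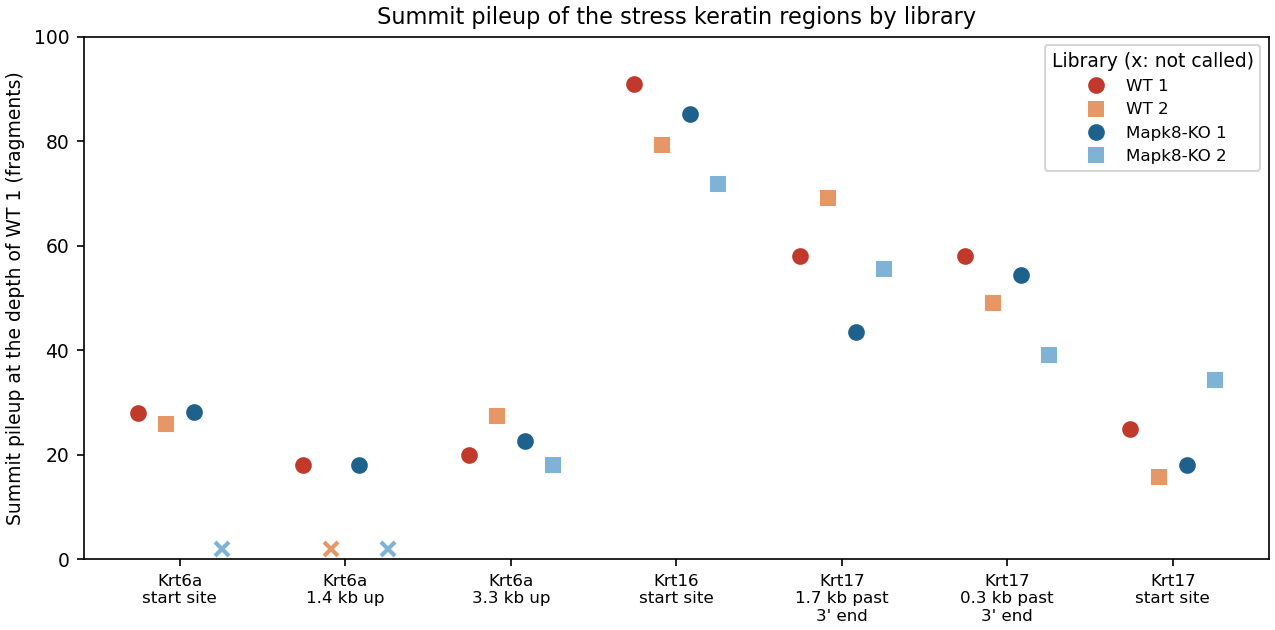
Summit pileup of the 7 regions in fragments at the depth of WT 1, 1 point per library, with a cross at the base for a library in which the region was not called. Krt16 is highest in every library (71.9 to 91.0 fragments). Only the Krt17 region 1668 bp past the 3′ end keeps both WT points above both Mapk8-KO points.

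Krt6a encodes a type II stress keratin, and its regions had few fragments. The region at the start site (chr15:101694332-101694700, strongest summit 138 bp upstream) had summit pileups of 28 and 18 in WT and of 31 in Mapk8-KO 1, and it was not called in Mapk8-KO 2. Scaled to depth these were 28.0, 25.9 and 28.1 fragments, so that the 3 libraries with a call hardly differed. At the depth of Mapk8-KO 2 they would correspond to 15.9 to 17.2 fragments. Peaks with as few as 10 fragments were called in that library at a like or higher background. The level in the other libraries thus lay above the lowest pileup called there, and the cause of the missing call was not tested. The same pattern, a call in every library but Mapk8-KO 2, was shown by 9.91% of all regions.

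The region 1406 bp upstream (chr15:101695568-101695893) was called only in WT 1, at 18 fragments, and Mapk8-KO 1, at 20, which are 18.0 and 18.1 at a common depth. In the other two libraries that level would amount to 12.5 to 12.6 fragments in WT 2 and 11.0 to 11.1 in Mapk8-KO 2, close to the lowest pileups called there at a like or higher background, 11 and 10. This pattern was shown by 7.91% of all regions. The region was not among those fitted in limma, which needed a call in every library. The cause of the missing calls was not tested.

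The region 3304 bp upstream of Krt6a (chr15:101697436-101697819) was the only one of the gene called in all 4 libraries, although with few fragments. Its pileups were 20 and 19 in WT and 25 and 11 in Mapk8-KO. It ranked among the lowest of all shared regions, at the 3.79 and 7.44 percentiles of fold in WT and 4.64 and 1.05 in Mapk8-KO. The log2 pileup difference, WT minus Mapk8-KO, was 0.21 (SE 0.32, adjusted p = 0.853 in limma). With each library left out in turn it ranged from -0.028, without WT 2, to 0.47, without WT 1.

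Krt6b, the close copy of Krt6a, had no region in its window in any library. The nearest regions lay 14045 bp upstream of its start site, which is the start site region of Krt6a, and 47507 bp past its 3′ end. The gene bodies of Krt6a and Krt6b aligned with 89.9% identity over 4158 columns. Of all 50-base words in the gene body, 40.0% in Krt6b and 35.3% in Krt6a occurred elsewhere in the genome, and the authors had removed reads that mapped to several places. In the 1 kb upstream of either start site this share was 0%. How many fragments of the gene bodies were lost by this was not tested. For Krt16 the share was 22.0% in the 1 kb upstream and 13.3% in the called region.

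**Figure D4:**
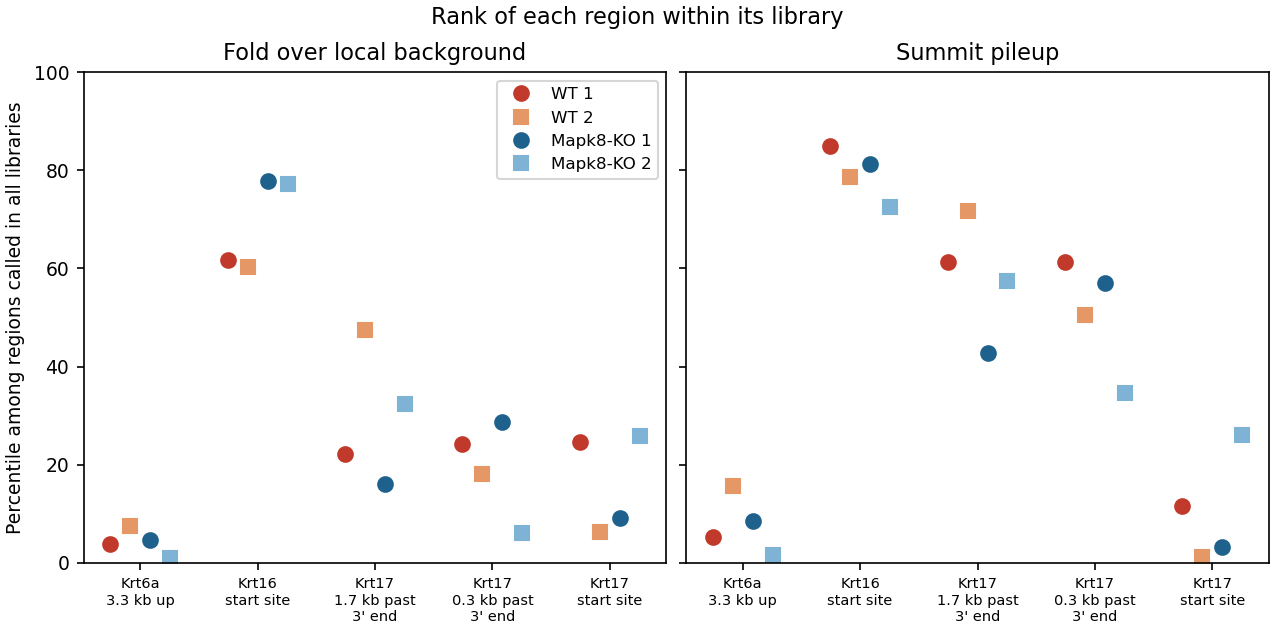
Percentile of the 5 regions called in all 4 libraries among all 40159 such regions, by fold over local background (left) and by summit pileup (right), 1 point per library. By fold, Krt16 stands at 77.3 and 77.8 in Mapk8-KO and 60.3 and 61.8 in WT. By pileup its points overlap (72.5 to 85.0).

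Over the 5 regions called in all libraries, limma called 0 (lowest unadjusted p 0.109, so 0 at an unadjusted p under 0.05), against 0.605% of all regions, of which 0.496% were higher in WT and 0.11% higher in Mapk8-KO. Of the 5 log2 pileup differences 4 were above 0, with a median of 0.21. Over all 40159 regions 17107 were above 0 and 23052 below, with a median of -0.05. Over the same 5 regions without Mapk8-KO 2, 3 were above 0 and the median was 0.012. The median difference in fold percentile was 2.78 points, against -0.513 over all regions, and became -0.132 points over the same 5 regions without Mapk8-KO 2.

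The promoters with fold percentiles most like those of each gene, among 12057 genes with a promoter region called in all 4 libraries, were found by Euclidean distance over the 4 libraries. For Krt16 they were Mars, Sucla2 and Ypel1, at 3.21, 3.52 and 3.89 points. For Krt17 they were Gsta4 at 2.20 points and Sgsh and Slc26a11, which share 1 region, at 3.36 points. Among 10851 promoter regions Krt16 stood above 56.1% and 50.8% in WT and 70.6% and 64.0% in Mapk8-KO, whereas Krt17 stood above 19.9% and 4.03% in WT and 6.10% and 15.1% in Mapk8-KO. The start site of Krt16 was thus among the middle to upper promoters and that of Krt17 among the lower ones.

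The 17 other keratins examined fell into basal, differentiating, hair follicle and simple epithelial genes. Their windows held 28 further regions, of which 6 (21.4%) were called in all 4 libraries, beside 5 of 7 at the stress keratins and 48.6% of the genome. A region within 2 kb of the start site was called in all 4 libraries for Krt15 of basal cells and Krt8 of simple epithelium, in some libraries for 6 genes, and in none for 9. Of these 2, Krt8, at 71 and 32 fragments in WT and 60 and 39 in Mapk8-KO, came nearest to Krt16 by summit pileup. By fold percentile Krt8 stood above Krt16 in every library. Its percentiles were 98.8 and 82.3 in WT and 94.7 and 86.2 in Mapk8-KO. Those of Krt16 were 61.8 and 60.3 in WT and 77.8 and 77.3 in Mapk8-KO. Limma called 0 of the 6 shared regions (lowest adjusted p 0.740). None of the 28 was called in both libraries of one genotype and neither of the other.

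**Figure D5:**
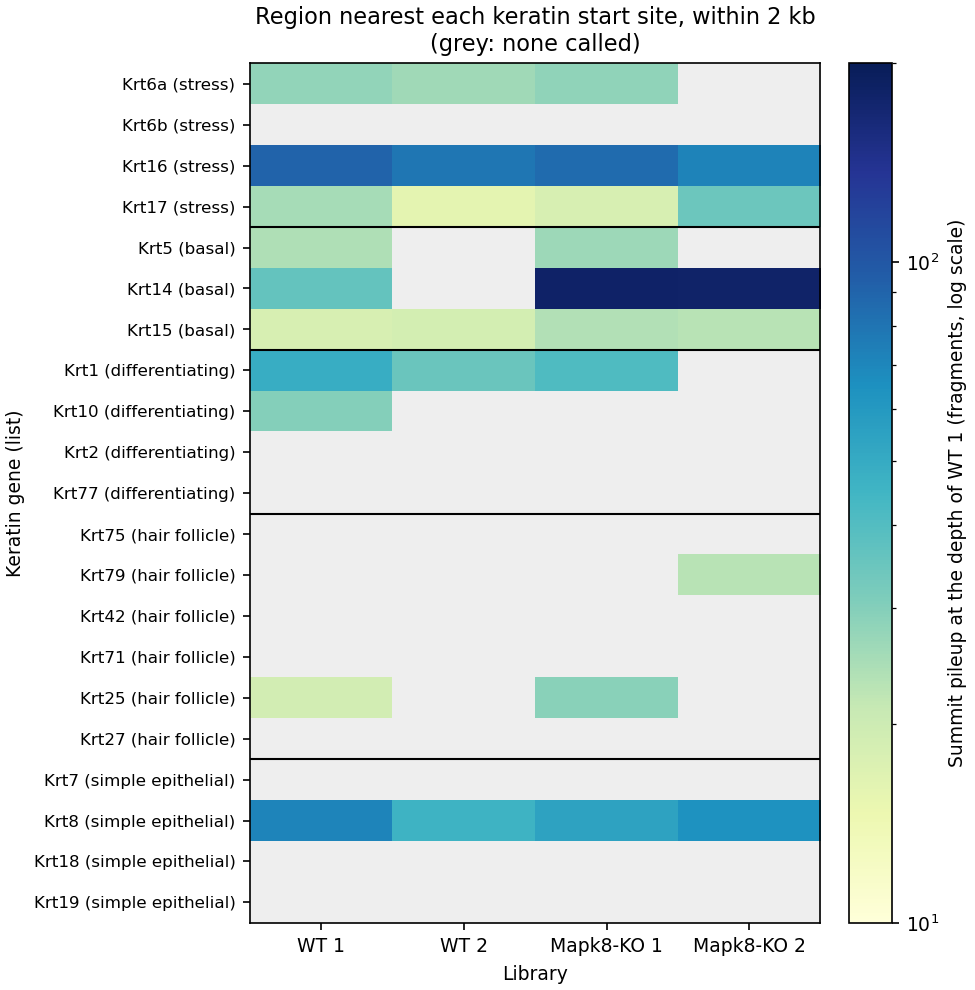
Summit pileup in fragments at the depth of WT 1 (log colour scale) of the region nearest each keratin start site within 2 kb, by gene and library, with grey where none was called. Among the stress keratins Krt16 and Krt17 are filled in all 4 libraries, Krt6a in 3 and Krt6b in none.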

How the data were processed

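ATAC-seq peak lists of 4 libraries were used, 2 WT and 2 Mapk8-KO, grouped and numbered by their labels. The authors' alignment to mm10 used Bowtie2 according to the methods, whereas the submitters' processing notes name Trimmomatic 0.36 and STAR 2.5.3. They removed multi-mapping and poorly mapped reads and called peaks per library, from fragments and with no control library, using MACS2, and no Tn5 shift is stated. The deposited lists give a fold (a ratio of summit pileup to local background, each plus 1), -log10 p and -log10 q values, a score derived from q that was not used, and the summit offset. Total read depth is unknown.

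Peaks were merged at 1 bp overlap. The whole-number summit pileup was solved from the deposited fold and -log10 p values, and at least 99.996% of peaks per list came out whole to within 0.05 fragments. The solver was tested on simulated data. Pileups were scaled by their median over the 40159 regions called in all 4 libraries and tested with limma 3.58.1 (R 4.3.3, variance trend, Benjamini-Hochberg adjustment over all of these regions, threshold 0.05). The DESeq2 test of the study could not be repeated, since peak lists hold no reads. Single regions had a two-sided exact permutation test over the 6 label assignments, whose smallest p is 0.33. Fold was ranked within each library over the same regions, and a rank difference needed 10 points between the closest libraries of the groups. Counting error is included in the spread between libraries and has no interval of its own here. Genes came from the GENCODE vM21 basic annotation. All 244222 peaks lay within its 21 chromosomes. Copied 50-base words were counted on both strands of the genome, and Krt6a and Krt6b were aligned with BLAST 2.17.0.

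Named regions were all those in the windows of the 4 genes, in full for start sites, for the highest-ranking region of each gene and for any region called different. The genes and lists were chosen with earlier results of these data known. The alternatives were other windows, a stricter q, equal list lengths, a minimum cover, other rank gaps and values, other scalings and models, a replicate block, and each library left out in turn. Ranking by pileup, centring on the median log2 ratio and leaving out libraries over a fixed set of regions were added after the data had been seen. Same-numbered libraries did not deviate together (Pearson r = 0.0392 between the replicate differences of WT and Mapk8-KO over 40159 regions), and the number was not treated as a pairing.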

Additional observations from a re-analysis of the deposited data

How the results depend on the processing

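No region was called by limma under any setting (lowest adjusted p 0.210), and no region was Mapk8-KO-specific. Within gene bodies alone 1 region remained, called in all 4 libraries, with 0 ranked higher in Mapk8-KO, a median percentile difference of -2.02 points and a median log2 pileup difference of -0.33. Regions called in all 4 libraries fell to 3 when all lists were cut to the shortest one, and to 3 where peaks had to cover at least 50% of a region. The median percentile difference was 0.913 points with 2 kb each side and 1.77 with lists of equal length. It was 5.42 points with summit pileup in place of fold. On log2 of the deposited fold the median log2 difference was 0.10. The rank call of Krt16 was lost, leaving 0 ranked higher in Mapk8-KO, with a gap of 20 points, with -log10 p in place of fold (WT minus Mapk8-KO -0.987 points) and with summit pileup in place of fold, where the difference turned from -16.5 to 4.98 points. With the replicate block, limma called 0 and 1 region was ranked higher in Mapk8-KO, as without it.

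Leaving out each library in turn, the regions ranked higher in Mapk8-KO stayed at 1, and those ranked higher in WT ranged from 0 to 1. Without WT 1 the region ranked higher in WT was the Krt17 region farther past the 3′ end. Without Mapk8-KO 1 it was the nearer one. Those specific to WT ranged from 0 to 1, the 1 being the start site region of Krt6a without Mapk8-KO 1. Regions called in every remaining library ranged from 5 to 6. The median percentile difference ranged from -1.52 to 2.46 points and the median log2 pileup difference from -0.013 to 0.24. Both lowest values came without Mapk8-KO 2, where the start site region of Krt6a joins the median and 6 regions enter. Over the same 5 regions, a comparison added after the data had been seen, the values without that library were -0.132 points and 0.012.

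Scaling on promoter regions moved the median log2 difference of all regions from -0.05 to 0.07, and that of the stress keratins from 0.21 to 0.33. Calls over all regions, 199 higher in WT and 44 in Mapk8-KO, depended on the model: 0 and 0 without the variance trend or on log2 fold (3987 and 2731 at an unadjusted p under 0.05), 16 and 0 scaled on promoters, 26 and 3 after quantile normalization, 86 and 8 centred on the median log2 ratio, and 284 and 102 with the replicate block. With each library left out they ranged from 2 to 1089 higher in WT and from 1 to 630 higher in Mapk8-KO, the most without Mapk8-KO 1. With 2 libraries a group and summit pileups of 11 to 31 at Krt6a, small differences there could have been missed.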

Other observations

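Basal keratin Krt14 had a region at its own start site (chr11:100207510-100207834) that was called in 3 libraries. Its summit pileup was 199 and 109 fragments in the Mapk8-KO libraries and 36 in WT 1, and it was not called in WT 2. At the depth of WT 1 these were 181, 178 and 36.0 fragments, and fold was 15.5, 14.6 and 4.35. Both Mapk8-KO peaks began at the same base, 100207526, whereas the WT 1 peak began at 100207510, and the 3 peaks were 299 to 309 bp wide. The Mapk8-KO mice carried a KRT14-cre transgene. Whether its reads add to this region was not tested, since peak lists hold no reads. The region was missing from 1 library and had no test. It was noticed after the values had been seen.

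Among the differentiating keratins, the region at the start site of Krt1, the type II keratin of suprabasal cells, had 49 fragments in WT 1, 24 in WT 2 and 45 in Mapk8-KO 1 and was not called in Mapk8-KO 2, the same pattern of calls as at the start site of Krt6a. That of Krt10, its type I partner, was called in WT 1 alone, at 30 fragments. Krt5, the type II keratin of basal cells, had 24 fragments in WT 1 and 29 in Mapk8-KO 1 and no call in the replicate 2 libraries, as at the Krt6a region 1406 bp upstream. Krt25, a keratin of the hair follicle, had 19 and 32 fragments in the same pair of libraries.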
